A study of Mus musculus with 6 samples.

Results

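The genes described here are 6 members of the Eph and ephrin family, the receptors Ephb2, Ephb3, Ephb4 and Epha2 and the ligands Efnb1 and Efnb2. They were taken by name from 24190 genes with counts, all 6 passed the filter for expressed genes, and 14692 genes were tested in all. RNA was sequenced from the AKP organoid line MTO54, derived from a mouse colorectal tumor and grown from dissociated single cells embedded in basement membrane extract. The 3 control samples were kept in complete stem cell medium, and the 3 Folfiri samples received 5FU, which blocks thymidylate synthesis, at 50 μg/μl (unit copied from the methods) with SN38, the active form of irinotecan and a topoisomerase I inhibitor, at 100 nM. By the labels and methods, treatment began 2 days after seeding and ran for 2 days, whereas a figure legend of the study gives a longer treatment. All samples came from this parental line, and a figure legend of the study calls the 3 samples per condition biological replicates, whereas the labels do not say whether they were separate cultures. The p values measure the spread between these samples of 1 line.

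Eph receptors are receptor tyrosine kinases whose ligands, the ephrins, are held on the surface of neighbouring cells, so that a signal runs forward into the receptor cell and, for ephrin-B, in reverse into the ligand cell. In the intestinal epithelium, Ephb2 and Ephb3 are targets of Wnt and β-catenin that are high at the crypt base, whereas ephrin-B ligands are high in the differentiated cells above, and the repulsion between them keeps crypt and villus cells in place. Ephb4 and Efnb2 are best known as the receptor and ligand that mark veins and arteries, and Epha2 binds mainly ephrin-A1 in epithelia.

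After Folfiri the members moved apart. Ephb2 fell 6.28-fold and Epha2 rose 4.23-fold, the ligands Efnb1 and Efnb2 moved in opposite directions, and Ephb3 and Ephb4 did not pass the test. Thus 2 of 6 members rose and 2 fell past the adjusted threshold of 0.05 (edgeR's quasi-likelihood test, Benjamini-Hochberg over all tested genes), against 40.3% of all tested genes that were higher, 38.8% that were lower and 79.1% that changed in either direction. The groups did not overlap for 4 of the 6 members and for 81.4% of all tested genes. With so many genes changed, being called is not particular to these members, and the sizes and directions of the changes are what the values below describe. Scaling mattered for small changes. With total counts alone, in place of TMM factors, 63.3% of the calls were higher in place of 51.0%. The median over all genes moved from 0.02 to 0.30 on the log2 scale. Under this scaling 4 of 6 members and 7322 of 14692 tested genes were called higher.

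Total counts on genes were 22103591 to 30098210 per sample, and TMM factors were 0.880 to 0.966 in controls and 1.10 to 1.11 after Folfiri. Control replicate 1 stood apart from the other controls. Its counts differed from theirs by 22.4 and 23.7 times the sampling noise (chi-square per degree of freedom over genes), whereas control replicates 2 and 3 differed by 3.84 times. Folfiri replicate 3 likewise differed from the other treated samples by 11.9 and 12.3 times, and those from each other by 3.55 times. The libraries were epithelial. The summed level of 7 epithelial markers was 5552 to 6462 CPM (counts scaled to library size, TMM-normalized) in controls and 4489 to 4663 CPM after Folfiri, and Epcam, an epithelial adhesion molecule, had 1252 and 652.8 CPM on average. The intestinal factor Cdx2 was present at 157 and 54.5 CPM. The summed level of 7 fibroblast markers was 1.08 to 1.44 and 2.06 to 2.45 CPM, and that of 7 immune markers 0.514 to 0.612 and 1.40 to 1.58 CPM. Endothelial markers, which bear on Ephb4 and Efnb2, summed to 79.9 to 132.9 and 69.7 to 79.9 CPM, nearly all of it Cdh5 (VE-cadherin), and to 8.07 to 9.80 and 4.16 to 5.77 CPM without Cdh5. The defining markers Pecam1, Col1a1 and Ptprc averaged 0.470, 0.842 and 0.396 CPM in controls and 0.459, 0.301 and 1.06 CPM after Folfiri, and Kdr was at 0 in every control. Of the fibroblast markers that passed the filter, Col1a1 fell, whereas Dcn (0.024 and 0.694 CPM) and Pdgfra (0.397 and 1.15 CPM) rose.

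The promoters of Ephb2 and Epha2 are shown because these genes had the largest changes of the 6 members, in opposite directions. Each window runs from 250 bases before to 50 bases after the RefSeq start on GRCm38.p6, 5′ to 3′ on the strand of the gene. Ephb2 is at chr4:136835963-136836262 on the minus strand and Epha2 at chr4:141300971-141301270 on the plus strand. Capitals mark matches, on either strand, to the letters CTTTGAA or CTTTGAT for TCF/LEF, the factors that carry the Wnt signal, to CATTCC for TEAD, and to TGAGTCA for AP-1.
Ephb2: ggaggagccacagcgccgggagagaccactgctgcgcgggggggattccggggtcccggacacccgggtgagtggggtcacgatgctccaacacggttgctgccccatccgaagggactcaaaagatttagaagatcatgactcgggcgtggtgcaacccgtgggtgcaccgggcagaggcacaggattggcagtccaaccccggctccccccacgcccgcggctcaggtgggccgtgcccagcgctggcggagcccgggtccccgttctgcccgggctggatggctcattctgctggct
Epha2: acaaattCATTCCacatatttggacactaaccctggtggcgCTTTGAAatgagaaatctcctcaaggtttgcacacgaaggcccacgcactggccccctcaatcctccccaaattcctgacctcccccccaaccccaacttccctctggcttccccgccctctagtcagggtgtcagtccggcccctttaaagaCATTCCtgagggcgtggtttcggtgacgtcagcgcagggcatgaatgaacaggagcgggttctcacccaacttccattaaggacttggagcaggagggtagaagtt
The Epha2 window held 1 TCF/LEF match, 209 to 203 bases before the start, and 2 TEAD matches, at 243 to 238 and 56 to 51 bases before the start. The Ephb2 window held none of these letters. Its GC content was 68.7%, with 24 CpG, against 54.7% and 10 CpG for Epha2. Of the other members, Efnb2 held 1 TEAD match, 105 to 100 bases before its start, and Ephb3, Ephb4 and Efnb1 held no match to any of the 3 motifs. Among 32851 RefSeq mouse promoter windows, 8.65% held a TCF/LEF match, 14.7% a TEAD match and 5.20% an AP-1 match. Such matches describe letters in the window and are not evidence of binding.

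Ephb2 (ENSMUSG00000028664) lies on chromosome 4 of GRCm38 from 136647539 to 136835988, minus strand. Its level was 89.8, 73.5 and 72.3 CPM in control replicates 1, 2 and 3 and 13.9, 12.5 and 11.2 CPM in Folfiri replicates 1, 2 and 3. Every treated sample lay far below every control, and the highest control was replicate 1. The mean went from 78.5 ± 9.79 to 12.5 ± 1.36 CPM (mean ± SD, n = 3 each), which is a log2 fold change equal to -2.65 (SE 0.12, 95% interval -2.91 to -2.40, adjusted p = 1.59e-08, edgeR). Only 2.18% of tested genes had a lower log2 fold change. These rested on 1406 to 2494 counts per control and 368 to 414 per treated sample. The epithelial marker sum was also lower after Folfiri, though by much less. Its markers were split. Of the 6 that passed the filter, 4 were lower, beside 38.8% of all tested genes, Cdh1 was higher and Krt18 did not pass the test. The part of the epithelial markers in the result was not tested. In bulk RNA, fewer cells that express a gene and less RNA of it per cell cannot be told apart.

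Ephb3 (ENSMUSG00000005958), on chromosome 16 from 21204755 to 21223305, encodes the receptor that acts alongside Ephb2 in the crypt. Its level was 82.6, 84.7 and 91.4 CPM in controls and 87.9, 84.5 and 85.0 CPM after Folfiri. All treated values lay within the control range. Means were 86.3 ± 4.60 and 85.8 ± 1.82 CPM (SD, n = 3 each), and the log2 fold change was -0.0069 (SE 0.07, 95% interval -0.16 to 0.15, adjusted p = 0.931, edgeR). Total counts alone gave 0.27, close to the median of all genes under that scaling (adjusted p = 0.00389, against a range of 0.00389 to 0.989 over all alternatives).

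Ephb4 (ENSMUSG00000029710), on chromosome 5 from 137350109 to 137378669, had 120.8, 102.5 and 97.2 CPM in controls and 119.7, 124.3 and 112.2 CPM after Folfiri. Control replicate 1 lay within the treated range and the other controls below it. Means were 106.8 ± 12.4 and 118.7 ± 6.12 CPM (SD, n = 3 each), with a log2 fold change of 0.15 (SE 0.09, 95% interval -0.05 to 0.35, adjusted p = 0.14, edgeR). The call turned on that library. Without control replicate 1 the log2 fold change was 0.25 and passed the test (adjusted p = 0.00328, edgeR), and with total counts alone it was 0.42 (adjusted p = 0.00649). Over all alternatives the adjusted p ranged from 0.00328 to 0.479. An exon of Zan on the opposite strand shares 33 of its exonic bases, or 0.711%, and whether the counting used strand is not given in the sources used here.

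Epha2 (ENSMUSG00000006445), on chromosome 4 from 141301240 to 141329384, lies on the same chromosome as Ephb2 and on the opposite strand. Its level was 113.1, 117.5 and 112.6 CPM in controls and 470.4, 488.7 and 494.4 CPM after Folfiri. Replicates were tight and the groups far apart. The mean rose from 114.4 ± 2.72 to 484.5 ± 12.5 CPM (mean ± SD, n = 3 each), which is a log2 fold change equal to 2.08 (SE 0.07, 95% interval 1.93 to 2.24, adjusted p = 4.41e-09, edgeR). A higher log2 fold change was seen in 5.71% of tested genes. The counts behind it were 2189 to 3142 per control and 14027 to 16294 per treated sample. The fibroblast and immune marker sums moved in the same direction, at no more than 2.45 CPM in any sample.

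Of the ligands, Efnb1 (ENSMUSG00000031217), on chromosome X from 99136130 to 99148991, encodes ephrin-B1, a ligand of Ephb2 and Ephb3. Its level was 64.5, 80.3 and 79.9 CPM in controls and 48.2, 49.2 and 51.6 CPM after Folfiri. The lowest control, replicate 1, was still above every treated sample. Efnb1 fell from 74.9 ± 9.05 to 49.6 ± 1.73 CPM (mean ± SD, n = 3 each), which is a log2 fold change equal to -0.59 (SE 0.09, 95% interval -0.80 to -0.38, adjusted p = 0.000161, edgeR). Total counts alone gave a smaller change of -0.31 that also passed the test.

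Efnb2 (ENSMUSG00000001300), on chromosome 8 from 8617434 to 8661242, minus strand, encodes ephrin-B2, the main partner of Ephb4. It had 28.1, 28.6 and 26.2 CPM in controls and 42.2, 45.6 and 38.0 CPM after Folfiri. The groups did not overlap. Efnb2 rose from 27.7 ± 1.25 to 41.9 ± 3.83 CPM (mean ± SD, n = 3 each), which is a log2 fold change equal to 0.60 (SE 0.09, 95% interval 0.40 to 0.80, adjusted p = 0.0001, edgeR). Total counts alone gave a larger change of 0.87. Of the 4 endothelial markers that passed the filter, Vwf fell (log2 fold change -1.13), Esam rose at under 1 CPM (adjusted p = 0.0195, edgeR), and Cdh5 and Pecam1 did not pass the test, and the part of such cells in the result was not tested. The levels of all 6 members by sample are plotted next.

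**Figure D1:**
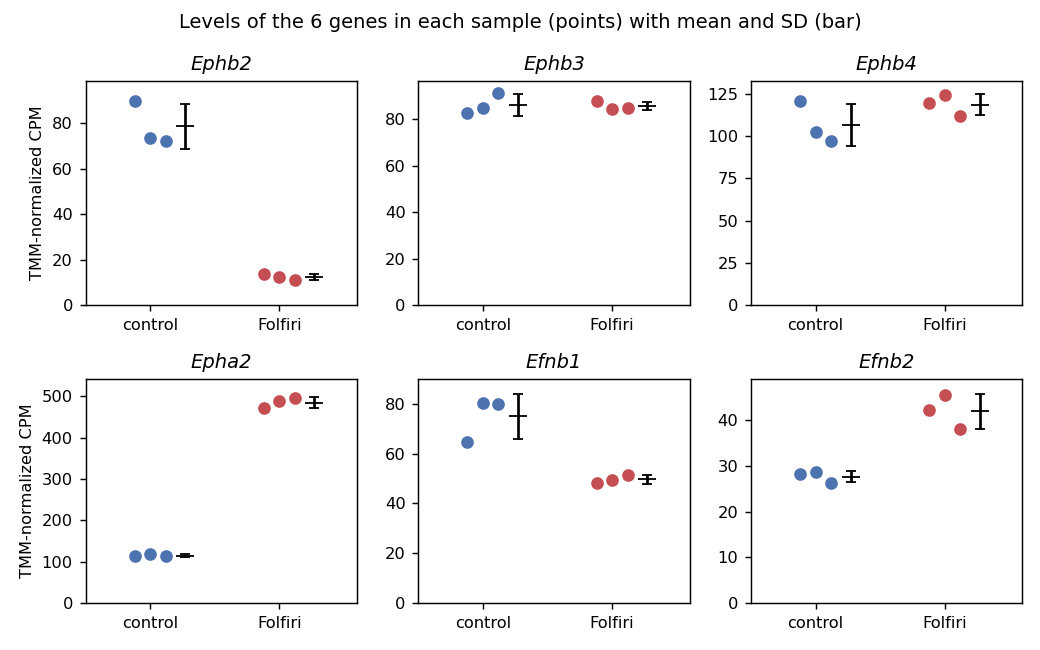
Level of each of the 6 members in TMM-normalized CPM (vertical axes, starting at 0, with a scale of its own per panel) in the 3 control and 3 Folfiri samples, with points for samples and the mean and SD for each group. Ephb2 dropped from 78.5 to 12.5 CPM and Epha2 rose from 114.4 to 484.5 CPM with no overlap, whereas the Ephb3 and Ephb4 groups overlapped.

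**Figure D2:**
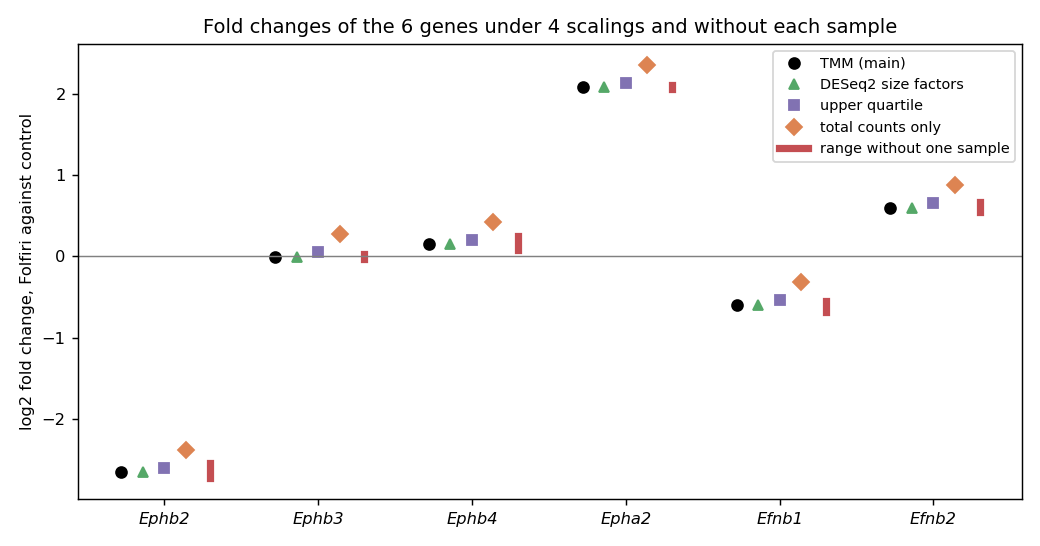
Log2 fold change of each member under 4 scalings (TMM, DESeq2 size factors, upper quartile and total counts only, 1 mark each) and the range when each sample was left out in turn (bars), with a line at 0. Ephb2, Epha2, Efnb1 and Efnb2 kept their sign in all that is drawn, whereas Ephb3 lay on both sides of 0, from -0.04 to 0.27.

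The rest of the family was examined as a list of 10 other Eph receptors and 6 other ephrins, of which 11 passed the filter. Among these, 4 were higher and 4 lower, close to the 79.1% called among all tested genes. Efnb3, encoding the third ephrin-B ligand, had the largest change of the family. Its counts were 25, 11 and 11 in controls and 305, 313 and 394 after Folfiri, and its level rose from 0.635 ± 0.238 to 10.8 ± 1.04 CPM (mean ± SD, n = 3 each), which is a log2 fold change equal to 4.04 (SE 0.21, adjusted p = 5.36e-08, edgeR). All 3 ephrin-B genes therefore passed the test, 1 lower and 2 higher.

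Among the other receptors, Epha4, which binds ephrins of both classes, rose from 14.9 to 28.0 CPM (log2 fold change 0.91). Ephb6, whose kinase domain is inactive, rose from 11.6 to 20.5 CPM (0.82). Epha7 rose only at the margin, from 1.91 to 2.72 CPM with overlapping groups (0.50, adjusted p = 0.0486, edgeR), and this call was lost with DESeq2 (adjusted p = 0.103) and without control replicate 2, control replicate 3, Folfiri replicate 2 or Folfiri replicate 3, within a range of 0.00535 to 0.183 over all alternatives. Epha5 fell, on very few counts, from 16, 16 and 11 in controls to 3, 5 and 4 after Folfiri (-2.18, adjusted p = 0.000161). Epha1 had 37.8 and 40.3 CPM (0.09, adjusted p = 0.313). Epha3, Epha6, Epha8, Epha10 and Ephb1 were below the filter, with at most 7 counts in any sample.

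Of the 5 ephrin-A ligands, 3 fell and 2 did not pass the test, beside 38.8% lower and 79.1% called in either direction among all tested genes. Efna1, the main ligand of Epha2, had 88.7, 133.8 and 128.2 CPM in controls and 36.8, 38.2 and 38.4 CPM after Folfiri. Control replicate 1 was the lowest control and still far above every treated sample. Efna1 fell from 117 ± 24.6 to 37.8 ± 0.885 CPM (mean ± SD, n = 3 each), which is a log2 fold change equal to -1.63 (SE 0.14, adjusted p = 1.25e-06, edgeR). Efna3 fell from 47.8 to 19.3 CPM (-1.31) and Efna5 from 11.1 to 8.18 CPM (-0.44, a call lost with total counts alone). Efna4, with 19.6 and 17.9 CPM, and Efna2, with 1.41 and 1.0 CPM, did not pass the test (adjusted p = 0.2 and 0.0596, edgeR). An antisense gene, Gm15998, covers 14.1% of the exonic bases of Efna3, so part of its counts may belong to that gene, and genes on the other strand also share 10.5% of those of Efna4 and 6.01% of those of Epha1.

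**Figure D3:**
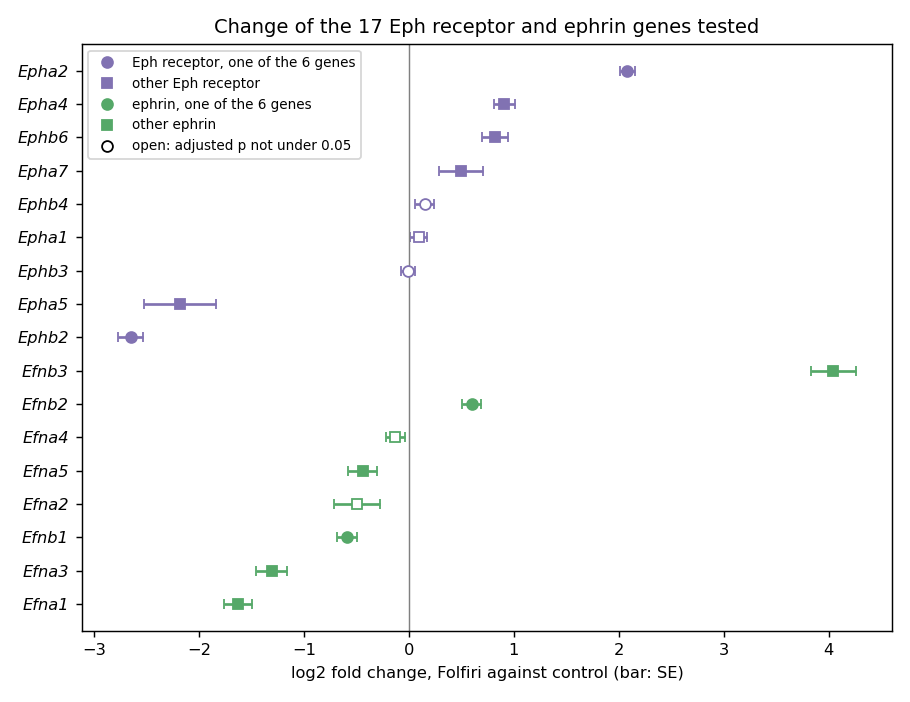
Log2 fold change, Folfiri against control, of the 17 Eph receptors and ephrins that passed the filter. Bars show the SE from edgeR's quasi-likelihood fit, not the 95% interval, and a line marks 0. Efnb3 (4.04) and Epha2 (2.08) lie farthest to the higher side and Ephb2 (-2.65) and Epha5 (-2.18) farthest to the lower side.

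Levels of different genes can be compared only per length, here as CPM per kilobase of exon. In controls Epha2 (24.5 ± 0.58) and Ephb4 (23.0 ± 2.66) led the receptors and overlapped, followed by Ephb3 (13.0), Epha1 (9.61), Ephb2 (6.23), Ephb6 (3.06), Epha4 (1.85), Epha7 (0.193) and Epha5 (0.0355). After Folfiri, Epha2 reached 103.7, Ephb4 was next at 25.6, and Ephb2 dropped to 0.992, below Ephb6 (5.44) and Epha4 (3.48), with no overlap between neighbours in the order. Ephb2 has 12608 exonic bases, most of them outside its coding length of 2961, so its level depends on the length used. For values by coding length, the same CPM, not restricted to reads in coding sequence, were divided by kilobases of coding length. Genes with long noncoding exons thus come out higher by that measure. Ephb2 was then 26.5 in controls, close behind Ephb3 at 29.0, and 4.23 after Folfiri against 28.8 for Ephb3.

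Among ligands in controls, Efna1 was highest, at 63.9 CPM per kilobase of exon. Efnb1 (21.7) and Efna3 (19.6) came next and overlapped, and Efna4 (12.3) and Efnb2 (4.03) followed. After Folfiri Efna1 stayed first at 20.6, before Efnb1 (14.4), Efna4 (11.2), Efna3 (7.92), Efnb2 (6.12) and Efnb3 (3.38). Efnb3 was last of the 8 in controls, at 0.200. By coding length Efnb2 lay below Efna4 and Efna3 in controls, at 27.4, and above both after Folfiri, at 41.6 against 29.1 and 27.9.

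The makeup of the family changed accordingly. Of the summed level per exonic length of the 9 detected Eph receptors, Epha2 made up 30.1 ± 1.27% in controls and 63.7 ± 1.37% after Folfiri, and Ephb2 7.63 ± 0.697% and 0.611 ± 0.0694% (SD, n = 3 each). By coding length, an alternative chosen after seeing the data, these were 25.6% and 61.5% for Epha2 and 17.3% and 1.57% for Ephb2. Among the 4 detected EphB receptors, the Ephb2 share went from 13.7 ± 0.662% to 2.21 ± 0.173%, or from 27.8% to 5.31% by coding length. Among the 3 ephrin-B ligands, Efnb1 went from 83.5% to 60.2%, Efnb2 from 15.7% to 25.6% and Efnb3 from 0.794% to 14.2%. By coding length these went from 71.9% to 47.9%, from 27.4% to 41.5% and from 0.636% to 10.6%. The groups did not overlap for any of these shares (two-sided exact permutation test, p = 0.1, which is the lowest value possible with 3 against 3).

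The sums themselves moved less evenly. The 9 receptors summed to 81.5 CPM per kilobase in controls and 162.6 after Folfiri, and the 8 ephrins to 125.1 and 66.2 (exact permutation test, p = 0.1 each). The 4 EphB receptors summed to 45.3 and 44.9 (p = 0.8 by the same exact test) and the 3 ephrin-B ligands to 25.9 and 23.9 (p = 0.4). For these last sums the control and Folfiri samples overlapped. The EphB sum depended on the length used. By coding length, an alternative chosen after seeing the data, it was 103.0, 91.0 and 91.1 in controls and 81.5, 80.9 and 76.2 after Folfiri, with no overlap (exact permutation test, p = 0.1). The ephrin-B sum overlapped by coding length as well, with means of 100.4 and 100.1.

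**Figure D4:**
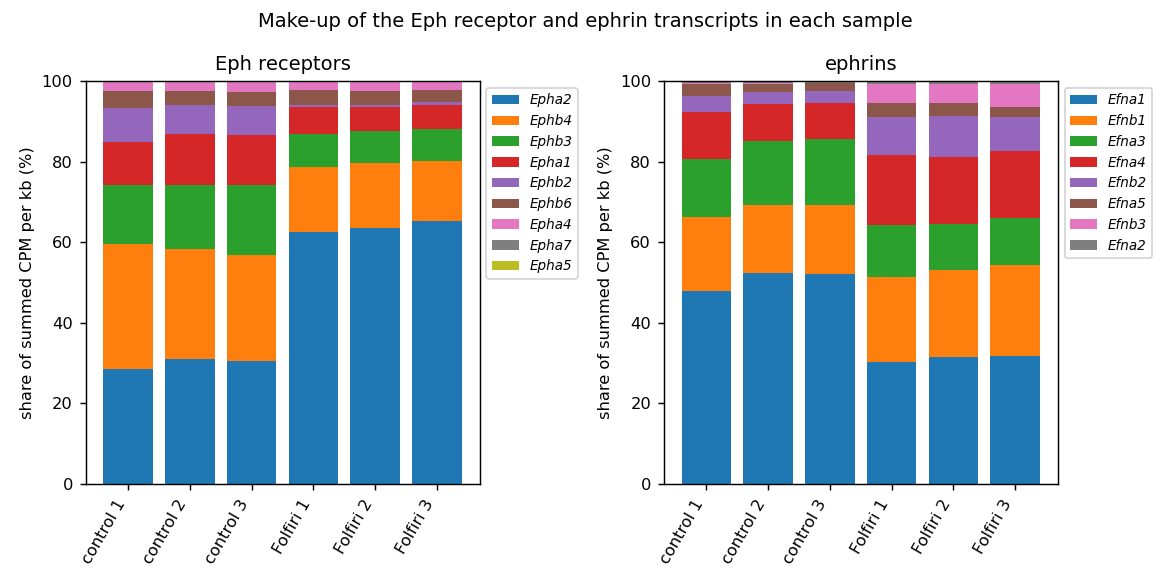
Share of the summed level (CPM per kilobase of exon, in percent) that each detected gene made up in each of the 6 samples, for the 9 Eph receptors and the 8 ephrins. Epha2 went from 30.1% to 63.7% of the receptors and Efna1 from 50.8% to 31.2% of the ephrins on average.

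Ratios between members within a sample do not depend on the scaling of libraries, and 10 pairs were compared as log2 ratios of levels per kilobase. The ratio of Ephb2 to Ephb3, both receptors of the crypt base, went from -1.07 in controls to -3.71 after Folfiri, a difference of -2.64 (SE 0.16). The ratio of Ephb2 to Efnb1 differed by -2.06 (SE 0.24) and that of Ephb2 to Efnb2 by -3.24 (SE 0.12), from 0.62 to -2.62 by exonic length. By coding length Ephb2 lay below Efnb2 already in 2 of 3 controls, with means of 26.5 and 27.4, and in every treated sample, with means of 4.23 and 41.6. The largest shift was that of Ephb2 to Epha2, from -1.98 to -6.71 (difference -4.73, SE 0.16).

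For Ephb3 the balance moved in opposite directions with its ligands, by 0.58 (SE 0.09) to Efnb1 and by -0.60 (SE 0.11) to Efnb2. The ratio of Ephb4 to Efnb2 differed by -0.44 (SE 0.09), that of Efnb1 to Efnb2 by -1.18 (SE 0.16) and that of Ephb2 to Ephb4 by -2.80 (SE 0.07). In these 9 pairs the groups did not overlap (exact two-sided permutation test, p = 0.1 each, the smallest possible, and 0.111 after Benjamini-Hochberg adjustment over the 10 pairs). The ratio of Ephb3 to Ephb4 was -0.82 and -0.98, with overlapping groups (difference -0.16, SE 0.14, exact p = 0.3). None of the 10 could pass a threshold of 0.05 by this exact test with 3 samples against 3.

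**Figure D5:**
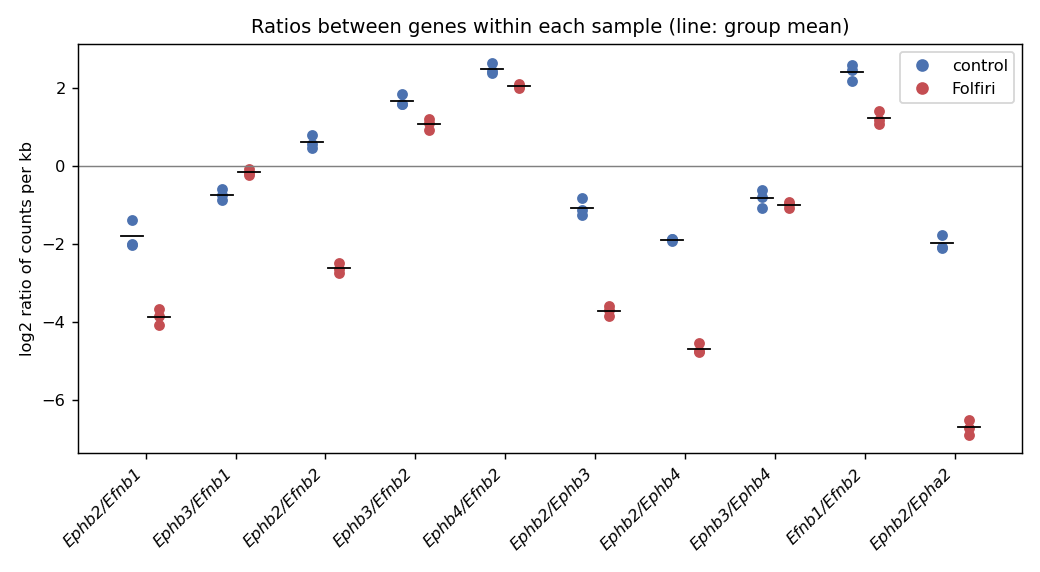
Log2 ratio of the levels per kilobase of exon for 10 pairs of members in each sample (points), with group means, for 3 control and 3 Folfiri samples. All ratios with Ephb2 as the first gene lay lower after Folfiri, with differences of -2.06 to -4.73, and only the Ephb3 to Ephb4 groups overlapped.

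Of 37 genes that act with Eph receptors and ephrins inside the cell, 36 were tested, 10 were higher and 17 lower, against a background of 40.3% higher and 38.8% lower. Their median log2 fold change was -0.17, against 0.02 for all tested genes. Exchange factors and GTPase-activating proteins, which pass the signal to small GTPases, were lower in 5 of 7, and Vav3 and Kalrn did not pass the test. Itsn1, an exchange factor for Cdc42 bound by Ephb2, fell from 27.6 to 13.2 CPM (-1.07), and Tiam1, an exchange factor for Rac, from 39.3 to 21.2 CPM (-0.89). The adaptors were split, with 3 of 7 higher and 2 lower, among them Grb10 (0.88) and Crkl (0.71).

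Of 10 kinases and phosphatases, 4 were higher and 4 lower. Ptpn13, a phosphatase that acts on ephrin-B, rose from 0.483 to 2.96 CPM (2.64), Abl2 from 61.2 to 132.1 CPM (1.11) and Src from 67.3 to 115.3 CPM (0.78). Fyn, a relative of Src, fell from 15.9 to 7.21 CPM (-1.14) and Ptk2, the focal adhesion kinase, from 142.0 to 68.5 CPM (-1.05). Among the listed PDZ proteins, 1 of 4 tested was higher and 2 lower. Of the 3 genes of turnover and adhesion, Adam10, the protease that sheds ephrins, fell from 495.5 ± 23.4 to 232.5 ± 17.8 CPM (mean ± SD, n = 3 each), which is a log2 fold change equal to -1.09 (SE 0.08, adjusted p = 6.23e-07, edgeR), Cdh1 rose (0.21) and Cbl did not pass the test. With total counts alone, 17 of the 36 partners were higher and 14 lower, against 7322 higher and 4250 lower of all 14692 tested genes.

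Ephb2 and Ephb3 belong to a wider group of Wnt targets and crypt genes. Of 17 other such genes, 16 were tested, 10 were lower and 5 higher, with a median log2 fold change of -0.52, beside a background of 38.8% lower and 40.3% higher. With total counts alone, 7 were lower and 6 higher, against 4250 lower and 7322 higher of all 14692 tested genes under that scaling. Lgr5, the stem cell receptor for R-spondins, fell from 20.9 to 3.64 CPM (-2.52, adjusted p = 3.81e-08, edgeR), a change of similar size to that of Ephb2. Smoc2, also a stem cell gene, fell by 2.46 and Rnf43, which removes Wnt receptors from the surface, by 1.08 on the log2 scale. The Wnt targets Sp5 (1.81), Myc (1.77) and Tcf7 (0.92) rose. Cd44, which like Ephb3 is a Wnt target, did not pass the test. The list thus held genes with the direction of Ephb2, genes with the opposite direction and 1 with no call.

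Genes of differentiated epithelium, where ephrin-B is known to be high, had low counts in these samples, apart from the microvillus gene Vil1. Of 12 listed, 10 were measured and 4 passed the filter. Fabp2, a fatty acid binding protein of enterocytes, rose from 0.620 to 1.70 CPM (1.47). Aqp8, a water channel, had 4, 1 and 0 counts in controls and 21, 14 and 21 after Folfiri. Krt20 and Vil1 did not pass the test.

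The expressed genes with profiles most like each member, by the distance between centred log2 CPM over the 6 samples, were Tmem132c, Mcf2l and Dync1i1 for Ephb2, at distances of 0.0821 to 0.214. For Epha2 they were Il1rn, Armc7 and Prr3 (0.0934 to 0.151). Nearest to Efnb1 were Hmgb2, Rpl19-ps6 and Tspan7 (0.0236 to 0.0653), and nearest to Efnb2 were Pde4d, Vkorc1l1 and Eif2s3x (0.0915 to 0.108). Ephb3 was closest to Fam219b, Spopl and Naa16 (0.0263 to 0.0662) and Ephb4 to Zbtb2 (0.0705) and Nup160 (0.0752). These distances describe likeness over 6 samples in 2 groups, and Rpl19-ps6 is a pseudogene whose reads may come from its parent gene.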

How the data were processed

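RNA sequencing of 3 control and 3 Folfiri samples of MTO54 organoids was analysed. Libraries were poly(A)-selected. The authors aligned reads with STAR 2.5.2 to mouse GRCm38 with GENCODE vM25, used Sambamba for sorting and Rsubread for counting, and deposited raw counts per gene. The strand setting and the treatment of multimapping reads are not given in the sources used here. Depth was 22103591 to 30098210 counts per sample, and low counts such as those of Epha5 limit precision.

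From the counts, edgeR 4.0.16 in R 4.3.3 was run with its default expression filter, TMM normalization and the quasi-likelihood test on all 14692 tested genes, p values adjusted by Benjamini-Hochberg, threshold 0.05. CPM are TMM-normalized. Symbols, positions and lengths came from GENCODE vM21 on the same build, in which 24168 of 24190 genes were found. Ratios used a prior count of 0.5, profiles 2, and exact two-sided permutation tests over samples. The procedure was tested on simulated data.

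The members and gene lists were chosen with earlier results of these data known. Named genes were the members, every other Eph and ephrin gene that passed the filter, up to 5 partners and up to 3 crypt or differentiated genes per direction with the largest change among called genes with separate groups, the 3 nearest profiles per member and 4 cell type markers. Cd44, Vav3, Kalrn, Krt20, Vil1, Cdh1, Krt18, Cbl, Cdh5, Esam, Vwf, Dcn, Pdgfra, Cdx2, Kdr and the genes below the filter were named after their values were seen, as complements of these counts. Fabp1, Muc2, Lum and Cd3e were not analysed here. Some items under this rule are not reported here. Alternatives were DESeq2 size factors, total counts, upper quartile scaling, other filters, the Wald test of DESeq2 1.42.0, a replicate block and leaving out each replicate.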

Additional observations from a re-analysis of the deposited data

How the results depend on the processing

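Ephb2, Epha2, Efnb1 and Efnb2 kept their direction and their call under every scaling, filter, test and left-out replicate that was run. Without 1 replicate each, their log2 fold changes were -2.73 to -2.54, 2.06 to 2.11, -0.69 to -0.55 and 0.54 to 0.67. Ephb3 had no stable sign. Its log2 fold change was 0.27 with total counts alone, 0.049 with upper quartile scaling, 0.0011 with at least 1 CPM in 3 samples, and -0.036 to 0.027 without 1 replicate each. Ephb4 passed the test at 0.42 with total counts alone, and ranged from 0.079 to 0.25 without 1 replicate each, passing without control replicate 1. With total counts alone 4 members and 17 partners were higher, beside 7322 of all 14692 tested genes. Under that scaling Efna4 turned to 0.15, Epha1 passed at 0.37 and Efna5 at -0.17 did not. Efna2 passed without control replicate 1, at -0.60 (adjusted p = 0.031, edgeR, within 0.031 to 0.353 over its alternatives). The number of members called higher was 2 to 3 without 1 replicate each. Deviations from the group mean had r = 0.027, -0.117 and 0.039 between replicates of the same number. Between replicates of different numbers r was -0.118 to 0.120. With 3 samples per group this cannot decide whether the numbers pair samples, and the labels do not say. With the replicate number as a block, 11499 genes were called in place of 11623, 2 members were higher and 2 lower, Ephb2 had -2.65, and Epha7 lost its call (adjusted p = 0.0578, edgeR). Few counts limit Epha5, Efna2, Epha7 and, apart from Vil1, the differentiated genes.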
